A study of Drosophila melanogaster with 20 samples.

Results

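Among the genes listed under a CG number, 70 had lower brain transcript levels in males and higher levels in females on the diet labelled low protein, high carbohydrate (LPHC) than on the diet labelled high protein, low carbohydrate (HPLC). They were chosen by name and by value. The name had to be CG plus digits, the normalised read count had to be 10 or more in at least 5 libraries of each sex, and the mean of log2(value + 1) on LPHC minus HPLC had to be -0.8 or lower in males and 0.9 or higher in females. The 70 members were 1.99% of the 3509 CG genes that passed the level filter in both sexes, out of 12441 genes listed in either sex. Because both diet differences chose the members, every diet difference of a member below is a description and no test is given for it.

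Brains of wild-type W1118 *Drosophila melanogaster* aged 4 to 7 days were profiled by RNA sequencing, with 20 libraries in 4 groups of 5 that combine sex and diet. All groups carry the same genotype, and the labels name no transgene. For males, LPHC had protein to carbohydrate of 0:1 and HPLC 1:1, both at 180 g/L. For females, LPHC was 1:2 at 360 g/L and HPLC was 1:1 at 90 g/L. The series describes the male pair as the diets with the longest and the shortest sleep. Recipes differed between the sexes, so sex and recipe cannot be told apart. Whether the stated concentration adds up both nutrients is not given. If it does, protein was 0 g/L on male LPHC, 90 g/L on male HPLC, 120 g/L on female LPHC and 45 g/L on female HPLC. Carbohydrate was then 180 g/L on male LPHC, 90 g/L on male HPLC, 240 g/L on female LPHC and 45 g/L on female HPLC. Under that reading, the members had their higher level in both sexes on the diet with more protein. In females that diet also had more carbohydrate and a higher concentration, so these cannot be told apart there. The part of protein was not tested. The labels do not say whether replicates came from separate cultures or how many brains a library holds, so the spread between libraries may be technical.

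Library depth ran from 13901684 to 35077559 recovered reads, and the ranges of the groups overlapped. Neuron markers (13 of 14 listed were in each table) made up 0.509% to 0.539% of reads on male HPLC, 0.606% to 0.781% on male LPHC, 0.212% to 0.299% on female HPLC and 0.236% to 0.315% on female LPHC, and none was at 0 reads. Fat body markers, of a tissue that adheres to the fly brain, took 1.41% to 1.62% of reads on male HPLC, 0.373% to 0.514% on male LPHC, 14.6% to 17.5% on female HPLC and 8.40% to 10.5% on female LPHC. Yolk protein genes are among these markers and made up most of the female shares. Alone they took 12.3% to 15.1% on female HPLC and 6.75% to 8.62% on female LPHC. Glia markers took 0.363% to 0.402% on male HPLC, 0.194% to 0.229% on male LPHC, 0.434% to 0.562% on female HPLC and 0.472% to 0.540% on female LPHC. Gut markers took 0.0777% to 0.0957% on male HPLC, 0.00738% to 0.0113% on male LPHC, 0.106% to 0.134% on female HPLC and 0.0549% to 0.0776% on female LPHC. Muscle markers took 0.367% to 0.455%, 0.691% to 0.883%, 0.277% to 0.357% and 0.258% to 0.337% in the same order of groups. The part of these tissues in the members' differences was not tested. Replicate 4 of male HPLC stood apart by a yolk protein share of 0.118% of reads, against 0.00666% to 0.00973% in the other male libraries. Without it the rule gave 57 genes, all of them among the 70. Leaving out a different male HPLC library gave 59 to 62. In bulk samples, fewer cells of a type and less RNA per cell cannot be told apart.

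A CG number is the name the genome annotation gives a predicted fly gene, and it stays the symbol until another one is adopted. Of the 70 members, 14 have a synonym in the RefSeq gene table (assembly Release 6 plus ISO1 MT) that names a protein family or a protein, and 56 have none. The leading families are ecdysteroid kinase-like proteins, of which some insect members attach phosphate to the moulting hormone or to foreign compounds, and secreted serine proteases. Such proteases work in cascades in the haemolymph, where they switch on the Toll pathway or the melanin-forming phenoloxidases, and their homologues with an altered active site act as regulators.

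Where a pair of differences is given below, the male one comes first. Over the members, the median diet difference (LPHC minus HPLC) was -1.68 on the log2(value + 1) scale in males, with a range of -6.96 to -0.82. In females it was 1.38, with a range of 0.92 to 4.71. Over all 9766 genes past the filter in both sexes these medians were 0.01 and -0.02. The difference was 2 or more in absolute size in both sexes for 12 members and 1 or more in both for 51. It was larger in males for 31 members and larger in females for 39. Across members, the male and female differences had a Pearson r of -0.31 and a Spearman rho of -0.30, over 70 genes that share their libraries and were cut at both thresholds.

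**Figure D1:**
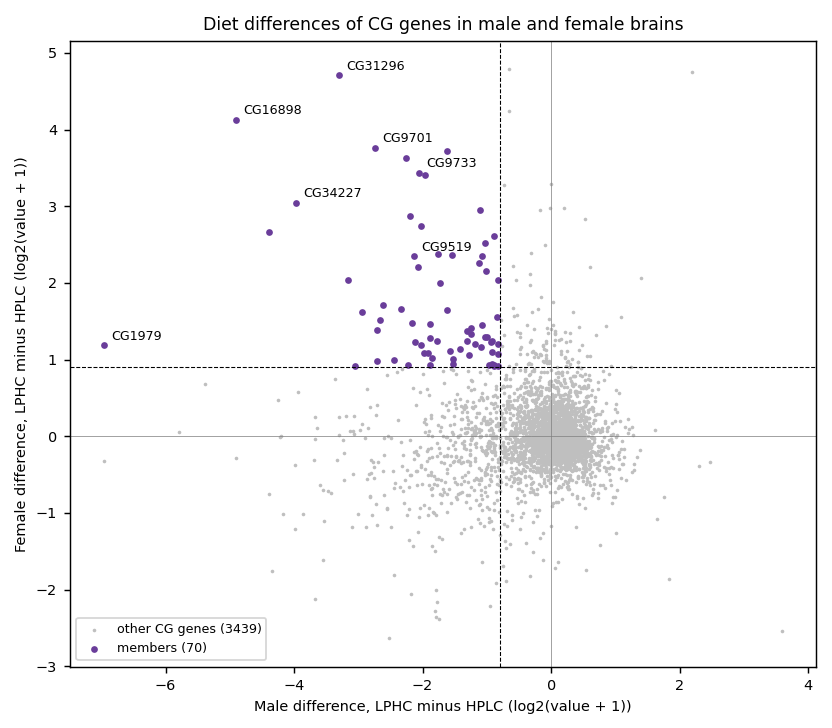
Each point is 1 CG gene past the level filter in both sexes, with the male diet difference on the x axis and the female diet difference on the y axis (LPHC minus HPLC, log2(value + 1)). The 70 members fill the upper left corner set by the thresholds, and CG1979 lies farthest left at -6.96 in males.

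Low enough in males were 15.4% of CG genes past the filter, and high enough in females 4.99%. In males, all 5 LPHC libraries lay below all 5 HPLC libraries for 57 of the 70 members. Across all genes tested in males, 23.7% had this order. In females, all 5 LPHC libraries lay above all 5 HPLC libraries for 66 members, against 12.0% of all genes tested in females. The groups were apart in both sexes for 57 members. These counts follow from how the members were chosen.

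At the edge of the male threshold, the members just inside were CG42524 at -0.82, CG7341 at -0.82 and CG14787 at -0.83. Just outside were CG14907 at -0.78, CG5853 at -0.77 and CG6675 at -0.74. At the female edge, CG16762, CG32195 and CG18808 were just inside at 0.92 each. CG9812 and CG5945 at 0.88 and CG5326 at 0.87 were just outside.

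Of the members, 3 have names from the ecdysteroid kinase-like family, and CG16898 (synonym Dro26-1) had the largest smaller-of-both-sexes difference of all 70. Its normalised read count in males was 1675, 1774, 2126, 2578 and 1746 on HPLC and 54.0, 66.9, 62.8, 92.7 and 50.8 on LPHC. In females it was 690.2, 772, 764, 543 and 764 on HPLC and 14320.4, 12202, 11169, 12067 and 11828 on LPHC. The groups were far apart in both sexes, with a mean 30.2 times as high on HPLC in males and 17.4 times as high on LPHC in females. CG33301 (Dro26-2) counted 88.4, 113, 116, 105 and 68.0 on male HPLC and 17.5, 19.5, 13.2, 19.6 and 5.65 on male LPHC. Its female counts were 159, 225, 236, 136 and 127 on HPLC and 298, 338, 331, 370.0 and 364 on LPHC. Its groups did not overlap, and the female ratio of 1.9 was much smaller than that of CG16898. CG32195 (Dro28-0) had means of 503 ± 52.8 on male HPLC and 274 ± 48.4 on male LPHC, and of 243 ± 37.0 and 456 ± 39.2 on female HPLC and LPHC (SD, n = 5 each).

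The other genes with Dro-numbered names were mixed in the female direction. CG genes of the family that met both thresholds are members and were taken out, which lowers the female median of the rest. Of 37 that are no members, limma called 28 lower and 4 higher on LPHC in males, and 10 lower and 7 higher in females. Their median difference was -0.63 in males and -0.14 in females, and the female median became 0.02 when libraries were scaled to the same total. Of the 37, 6 or 16.2% were called lower in males and higher in females, against 6.73% of all 9766 genes (657), members included. Over all genes tested, 29.6% were called lower in males and 16.7% higher in females.

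**Figure D2:**
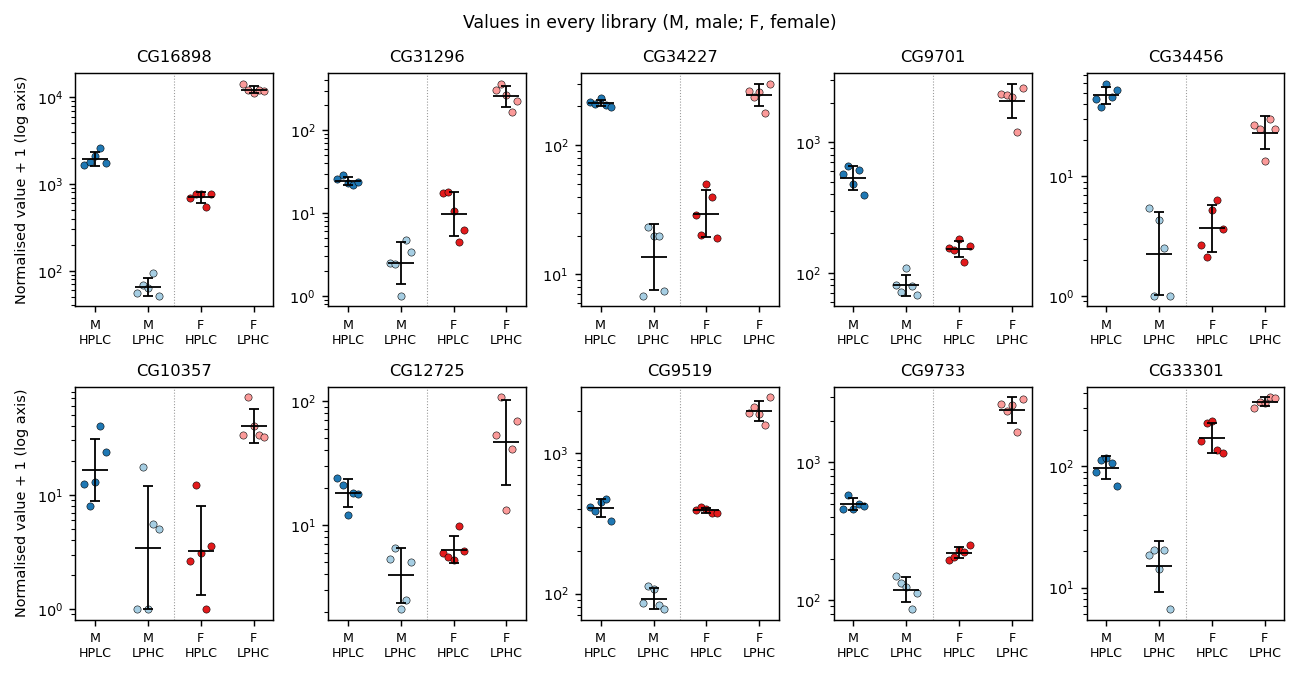
Normalised read count plus 1 per library, on a log axis, for the 10 members whose values are given in full, by sex and diet. Points are libraries, and the lines and bars are the mean and SD on the log scale (n = 5). CG16898 counts 50.8 to 92.7 on male LPHC and 11169 or more on female LPHC.

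Among the members, 6 have serine protease names. CG9733 (SP10, also called proPO-AE for prophenoloxidase-activating enzyme) counted 459, 581, 461, 501 and 483 on male HPLC and 149, 131, 125, 85.1 and 112 on male LPHC. Female values were 196, 206, 231, 223 and 251 on HPLC and 2654, 2363, 2613, 1666 and 2883 on LPHC. Every library followed the group order in both sexes, and the ratio of means was 4.1 in males and 11.0 in females. The others had lower counts. CG11529 (SP84) averaged 168 ± 31.2 on male HPLC and 56.4 ± 15.8 on male LPHC, and 20.8 ± 8.33 and 43.7 ± 7.46 on female HPLC and LPHC (SD, n = 5 each). CG14227 (SPH158) averaged 26.7 ± 2.28 on female HPLC and 169 ± 24.8 on female LPHC, but its male groups, at 70.3 ± 19.1 and 38.9 ± 16.5, overlapped (SD, n = 5 each). CG4998 (SPH66), CG16710 (SP16) and CG18754 (SP61) averaged 29.6 to 35.1 on male HPLC, and their female differences were 1.48, 1.21 and 1.38. CG16710 and CG18754 are adjacent genes.

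Of 88 other genes with serine protease names, limma called 49 lower and 14 higher on LPHC in males and 33 lower and 12 higher in females. The median difference was -0.58 in males and -0.15 in females, where it became 0.02 at the same total. Of these 88, 6 or 6.82% were called lower in males and higher in females. The share over all genes was 6.73% with members kept in. The 88 lack the members of the family by the rule, so these shares cannot be compared directly. Haemocyte markers, from the blood cells that make many haemolymph proteins, took 0.0632% to 0.0727% of reads on male HPLC and 0.0464% to 0.0604% on male LPHC. They took 0.0716% to 0.0863% on female HPLC and 0.0850% to 0.0983% on female LPHC. Of the 12 haemocyte markers, all were in both tables and none was at 0 reads. In males 8 were called lower and 2 higher, and in females 1 was called lower and 3 higher. Over all genes tested, 29.6% were called lower in males and 16.7% higher in females. Other markers were called as well. All 12 glia markers were called lower in males, and 4 higher and 4 lower in females. Of 15 fat body markers tested, 11 were called lower and 1 higher in males, and 9 lower and 3 higher in females. The part of haemocytes in the members' differences was not tested.

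**Figure D3:**
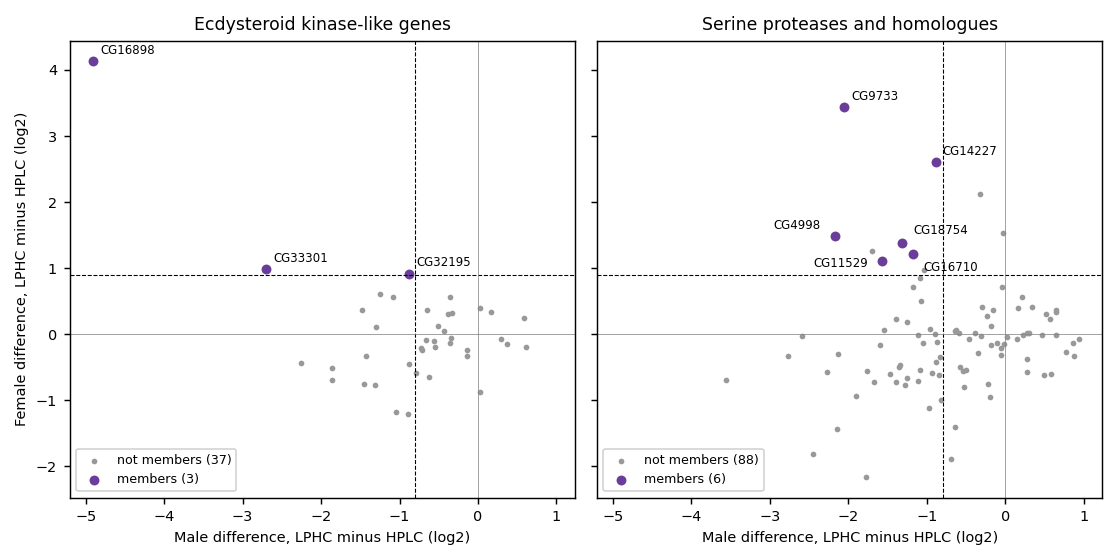
Diet differences (LPHC minus HPLC, log2(value + 1)) in males and females for genes with Dro-numbered names and with serine protease names, with members marked. The members lie beyond both dashed thresholds by choice. The 37 and 88 other genes, left after members were taken out, have female medians of -0.14 and -0.15.

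Single members carry enzyme, receptor or transporter names. CG9701 has the synonym klotho, a name given to relatives of family 1 glycosidases. Its count was 573, 656, 482, 609 and 389.9 on male HPLC and 80.3, 69.7, 107, 78.4 and 66.2 on male LPHC. In females it was 153, 147, 180.4, 120.5 and 159 on HPLC and 2334, 2306, 2206, 1207 and 2605 on LPHC, where replicate 4 lay below the other libraries of its group and still far above HPLC. CG9519 (GMCtheta1) belongs to the glucose-methanol-choline oxidoreductases, flavoenzymes that include sugar and ecdysone oxidases. It counted 413, 387, 449, 472 and 328 on male HPLC and 84.6, 112, 107, 82.1 and 76.7 on male LPHC. Among females, values were 393, 415, 401, 372 and 374 on HPLC and 1921, 2142, 1917, 1589 and 2507 on LPHC, so that neither pair of groups overlapped.

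The remaining members with such names had smaller differences. CG8028, with the synonym MCT for monocarboxylate transporter, averaged 19.8 ± 7.78 and 7.47 ± 2.82 on male HPLC and LPHC and 15.05 ± 9.40 and 36.5 ± 10.9 on female HPLC and LPHC (SD, n = 5 each). Its groups overlapped in both sexes. CG7509, called tartan/capricious-like after a pair of leucine-rich repeat cell surface proteins, had differences of -1.27 and 1.06. CG2444, with the synonym DIGF-6, had differences of -1.89 and 1.46. CG8785, placed among amino acid transporters, averaged 244 ± 23.2 and 126 ± 20.4 on male HPLC and LPHC and 151 ± 5.40 and 289 ± 17.3 on female HPLC and LPHC (SD, n = 5 each).

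Of the 8 members with the largest difference in the sex where it was smaller, 5 have no family name in the reference. CG34227 counted 216, 209, 230.4, 205 and 198 on male HPLC and 5.84, 22.3, 18.7, 18.8 and 6.46 on male LPHC. Its female counts were 27.9, 19.1, 49.3, 38.7 and 18.1 on HPLC and 262, 235, 258, 177 and 298 on LPHC. The groups were apart in both sexes. CG31296 counted 25.0, 27.7, 21.9, 20.8 and 22.7 on male HPLC and 1.46, 1.39, 0, 3.77 and 2.42 on male LPHC. In females it counted 16.4, 16.9, 9.44, 3.52 and 5.18 on HPLC and 302, 363, 267, 163 and 226 on LPHC, which gives the largest female difference of all members at 4.71. Its groups were apart in both sexes, with very low counts on male LPHC.

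CG34456 counted 43.2, 37.0, 58.1, 44.7 and 51.3 on male HPLC and 4.38, 0, 3.31, 1.51 and 0 on male LPHC. In females it counted 1.64, 1.12, 4.20, 5.28 and 2.59 on HPLC and 26.0, 23.9, 12.3, 29.1 and 23.8 on LPHC. Its low groups rest on 8 reads in males and 14 reads in females over 5 libraries, and the groups did not overlap. CG12725 counted 23.1, 20.03, 11.0, 17.1 and 16.7 on male HPLC and 4.38, 5.58, 1.10, 1.51 and 4.03 on male LPHC. In females it counted 4.93, 4.50, 4.20, 8.79 and 5.18 on HPLC and 52.6, 107, 12.3, 39.8 and 67.7 on LPHC. The female LPHC libraries of CG12725 spread widely and all lay above HPLC.

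CG10357 counted 11.5, 6.94, 12.1, 39.5 and 22.7 on male HPLC and 0, 16.7, 0, 4.52 and 4.03 on male LPHC, so the male groups overlapped. In females it counted 1.64, 11.2, 2.10, 0 and 2.59 on HPLC and 32.6, 70.9, 39.2, 32.2 and 31.1 on LPHC, with no overlap. CG10357 was the only member with a difference of 2 or more in both sexes whose groups overlapped.

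CG1979 had the largest difference in males. Its mean was 781 ± 69.8 on HPLC and 5.40 ± 1.49 on LPHC, a ratio of 144.6 that rests on 28 reads over the 5 LPHC libraries, whereas its female means were 400.2 ± 43.1 and 915 ± 114 (SD, n = 5 each). The other members with a difference of 2 or more in both sexes were CG12268, CG14395 and CG43062. CG12268 averaged 765 ± 79.9 and 188 ± 62.1 on male HPLC and LPHC and 333 ± 49.9 and 1539 ± 209 on female HPLC and LPHC (SD, n = 5 each).

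A further 39 members had a smaller difference of at least 1 and under 2, of which 34 had groups apart in both sexes. Beside those already described they were CG34434, CG8654, CG18473, CG32512, CG3397, CG7675, CG12224, CG9447, CG12766, CG14419, CG31343, CG43091, CG10445, CG17261, CG8907, CG2065, CG15282, CG9864, CG45067, CG34232, CG5835, CG34454, CG11854, CG13074, CG45061, CG42240, CG15337, CG7742, CG14625, CG10005 and CG43092. Male differences in this set ran from -6.96 to -1.001 and female differences from 1.00 to 3.72. CG9447 and CG34434 had a larger female than male difference, at 3.72 against -1.61 and 3.41 against -1.97. CG12224, CG42240, CG7675 and CG32512 had high counts, with means of 2779 ± 336, 4461 ± 343, 2227 ± 94.6 and 1863 ± 356 on male HPLC and 5625 ± 632, 4949 ± 745, 3155 ± 239.7 and 2274 ± 355 on female LPHC (SD, n = 5 each).

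The last 19 members had a smaller difference under 1. Beside CG33301, CG32195, CG14227, CG8785 and the 5 others given at the edge of the rule, they were CG31029, CG31454, CG7910, CG13965, CG7299, CG15021, CG3008, CG14020, CG34265 and CG15332. Groups were apart in both sexes for 12 of these 19. CG3008 had a narrow spread, with means of 2150.5 ± 66.1 and 1138 ± 83.0 on male HPLC and LPHC and 1577 ± 109 and 3735 ± 301 on female HPLC and LPHC (SD, n = 5 each). CG16762 and CG31029 had large male differences of -3.05 and -2.44.

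In both sexes, the group mean on the higher side reached 100 for 30 members and 1000 for 8 of these, and it stayed under 50 for 13. The members spread more between replicates than CG genes at large, which were not matched to them for level. Their median pooled SD of log2(value + 1) was 0.33 in males and 0.33 in females, against 0.14 and 0.18 over all CG genes past the filter.

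The members together took 0.131% ± 0.00803 of reads on male HPLC and 0.0470% ± 0.0025 on male LPHC. They took 0.0699% ± 0.00148 on female HPLC and 0.288% ± 0.0218 on female LPHC (SD, n = 5 each). Shares of reads do not depend on the scaling of either table, though other abundant transcripts of a library move them. With reads divided by the depth of their library, 42 members followed the order male LPHC, female HPLC, male HPLC, female LPHC from lowest to highest. So did 140 of all 3509 CG genes, the members included. Male LPHC was the lowest group for 52 members and female HPLC for 18. Female LPHC was the highest for 65 and male HPLC for 5. The rule chose members with male LPHC below male HPLC and female HPLC below female LPHC, so these counts follow partly from it.

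**Figure D4:**
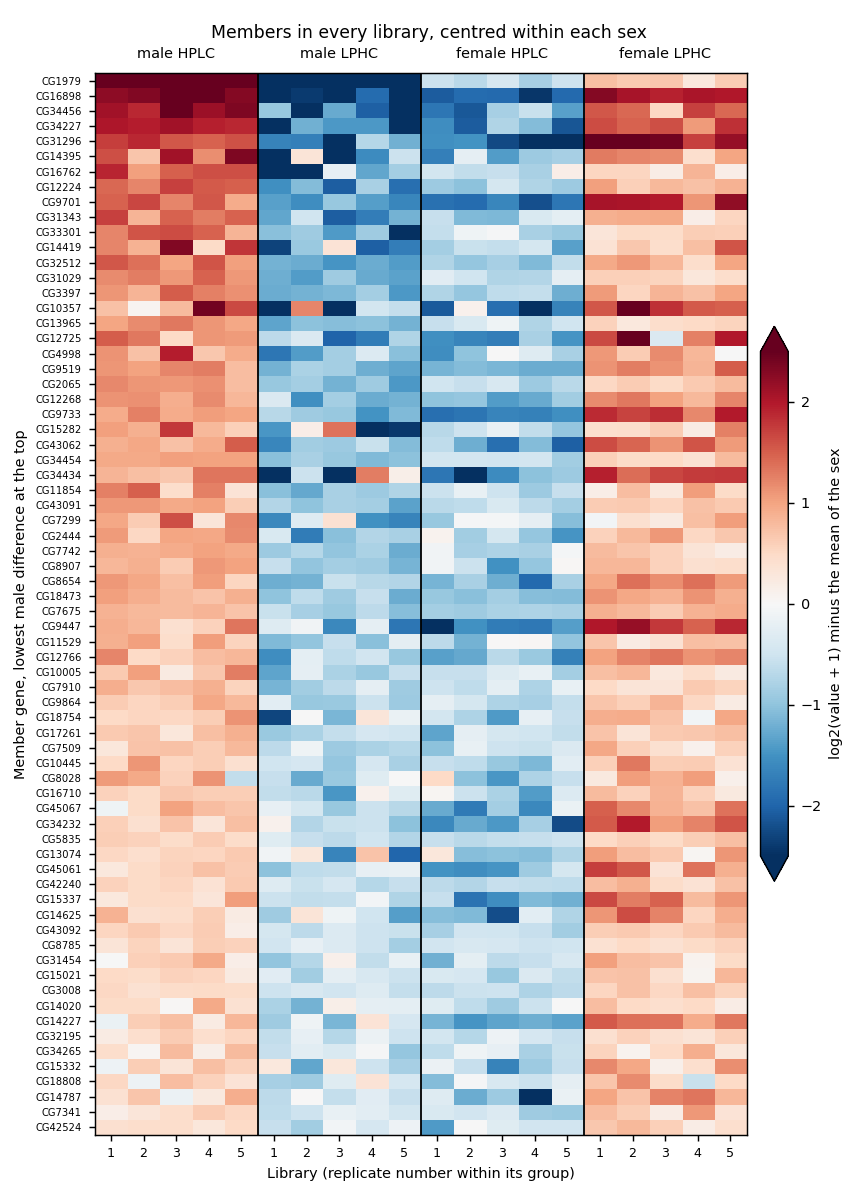
Centred log2(value + 1) of the 70 members (rows) in the 20 libraries (columns), with each sex centred on its own mean. Male HPLC and female LPHC libraries are mostly high and the other groups mostly low, and the mean over members per library is 6.99 to 7.09 on male HPLC, 5.01 to 5.36 on male LPHC, 5.97 to 6.05 on female HPLC and 7.66 to 7.91 on female LPHC.

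Within groups, members varied together little. The mean pairwise r of their deviations from group means was 0.05 over the 20 libraries, against 0.01 over all CG genes past the filter. A few pairs were more alike. CG14419 and CG7299 had an r of 0.94, CG7675 and CG5835 one of 0.85, CG2065 and CG33301 one of 0.83, and CG7299 and CG15282 one of 0.81. These values describe the top of 70 genes compared pair by pair over libraries that share depth and scaling. The groups of CG7299 overlapped in both sexes.

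Centred on each sex, single members had an r of 0.68 (CG15282) to 0.995 (CG16898) with the mean of the others over the 20 libraries, with a median of 0.90. These values take in the diet differences that chose the members, so high values follow from the choice. Genes that are no members were ranked below by the same measure, which mainly picks genes with the same diet differences. Among 9696 genes that are no members, the 10 most like the member mean were CG5326 at 0.990, CG8814 and GstD9 at 0.985, kermit at 0.978, CG8306 at 0.976, spirit at 0.973, ced-6 and Muc68Ca at 0.971, Mtap at 0.970 and Elovl7 at 0.969. CG5326 missed the rule by its female difference of 0.87, and CG8814 by both. GstD9 is a glutathione transferase, which couples glutathione to reactive compounds. It differed by -1.53 in males and 1.57 in females.

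The CG genes are not alone in this pattern. Of 6257 other genes past the filter, 62 met both thresholds, 0.991% of them, or 9.45% of the 656 low enough in males and 29.7% of the 209 high enough in females. The members were 13.0% of the 540 CG genes low enough in males and 40% of the 175 high enough in females. The reverse pattern, 0.8 or more higher in males and 0.9 or more lower in females, held for 4 CG genes. Fewer CG genes could meet it, since only 86 were that high in males and 96 that low in females. By these sizes, 60 CG genes were low in both sexes, out of the 540 low in males and the 96 low in females.

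Among the lists of other genes, glutathione transferases held many with the members' pattern, and most other lists held some. Of 29 tested, limma called 24 lower and 1 higher on LPHC in males and 16 higher and 4 lower in females, with medians of -0.92 and 0.33. Of the 29, 16 or 55.2% were called lower in males and higher in females, against 6.73% of all genes, among them GstE7 with -3.27 ± 0.16 (SE, adjusted p = 5.92e-10) in males and 1.42 ± 0.12 (SE, adjusted p = 2.69e-07) in females by limma with Benjamini-Hochberg adjustment. The share called in both of these directions was 31.8% for lipid synthesis and lipases and 26.1% for serine synthesis and the amino acid shortage response. It was 25% for heat shock genes and chaperones, 19.0% for odorant-binding proteins and 13.6% for nucleolus and ribosome biogenesis. For maltases, amylases and mannosidases it was 10%, for amino acid transporters 5.26%, for amino acid catabolism 3.85% and for insulin and TOR signalling 0%. Digestive serine proteases had 3 genes tested. All 3 were called lower in males, with a median of -1.36, and 2 were called higher and 1 lower in females, with a median of 0.98. Of the 2, Jon74E (1.26, limma adjusted p = 0.0328) was not called with the replicate block (0.0653), by edgeR (0.0591) or without any 1 of 6 libraries (0.0599 to 0.0882).

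In the lists of metabolic enzymes and odorant-binding proteins, more genes were called lower than higher in females. Amino acid catabolism had 22 of 26 genes called lower in males and 17 lower in females, with medians of -2.09 and -0.49. Maltases, amylases and mannosidases had 9 of 10 lower in males and 4 lower and 2 higher in females, with medians of -1.73 and -0.23. Lipid synthesis and lipases had 20 of 22 lower in males, and 9 lower and 7 higher in females, with medians of -1.66 and -0.16, the latter -0.00 at the same total. Odorant-binding proteins had 10 of 21 lower and 5 higher in males, and 7 lower and 4 higher in females, with medians of -0.27 and -0.26 that became -0.02 and -0.09 at the same total.

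Heat shock genes and chaperones had 17 of 20 called higher in females, with a median of 1.32, and 5 lower and 2 higher in males, with a median of -0.13 that became 0.12 at the same total. Nucleolus and ribosome biogenesis had 20 of 22 called higher in females and 3 higher and 3 lower in males, with medians of 0.06 in males, which became 0.31 at the same total, and 0.53 in females. Serine synthesis and the amino acid shortage response had 13 of 23 called lower and 4 higher in males, with a median of -0.25 that became 0.00 at the same total. In females 9 were higher and 5 lower, with a median of 0.20.

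Insulin and TOR signalling had 8 of 21 lower and 5 higher in males, and 8 lower and 3 higher in females. Its medians of -0.06 and -0.09 became 0.19 and 0.07 at the same total. Amino acid transporters had 7 of 19 lower and 5 higher in males, and 3 lower and 5 higher in females. Their medians of -0.09 and -0.00 became 0.16 in each sex at the same total. Called genes made up 57.2% of all genes tested in males and 31.5% in females.

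Several members are neighbours in the genome. In the order of protein-coding genes of the RefSeq assembly, 13 members form 6 runs with at most 1 gene between. The runs are CG8654 with CG16898, CG7509 with CG18808, CG32195 with CG7341, CG10005 with CG12224 and CG3397, CG43091 with CG43092, and CG16710 with CG18754. A directly adjacent member was present for 12 members, 17.1% of them, against 1.34% of the 3508 CG genes placed. A neighbour that met both thresholds, whatever its name, was present for 18 members, or 25.7%, against 2.08%.

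**Figure D5:**
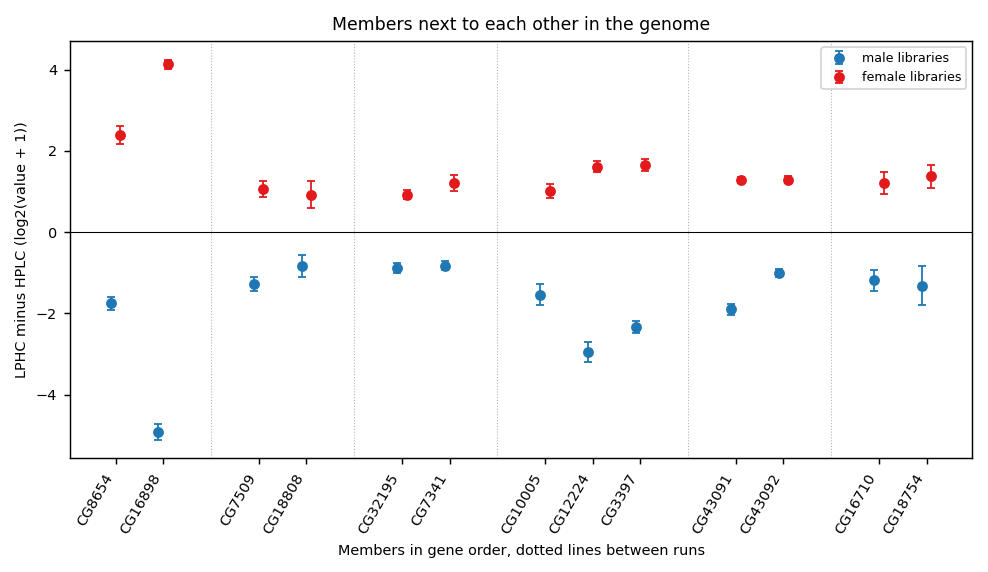
Diet differences (LPHC minus HPLC, log2(value + 1)) in males and females of the 13 members in the 6 runs of neighbouring genes, with error bars of 1 SE from the spread of 5 libraries per group. Within the run of CG8654 and CG16898, the differences are -1.75 and -4.91 in males and 2.38 and 4.13 in females.

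Neighbours that met both thresholds under another name were AOX1 beside CG31296, mfas beside CG3397, to beside CG11854, obst-B beside CG33301, Ppi1 beside CG31029, ATPsynbetaL beside CG13074 and FASN2 beside CG17261. AOX1 encodes an aldehyde oxidase and lies upstream of CG31296 on the same strand. Its differences were -1.20 and 1.17, while those of CG31296 were -3.30 and 4.71. FASN2, a fatty acid synthase, differed by -2.92 and 1.29, and CG17261 by -1.30 and 1.24.

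The direct upstream neighbour lay on the same strand for 57 of the 70 members, or 81.4%. The share was 44.8% over the 3438 other CG genes placed, 57.9% over the 470 other CG genes low enough in males, 56.2% over the 105 other CG genes high enough in females, and 63.8% over the 58 placed genes of other names that met both thresholds. Of the 57 upstream neighbours, 50 passed the level filter and 45 of these are no members. These 45 had a median difference of -0.42 in males and 0.06 in females, and 21 of them, or 46.7%, were lower in males and higher in females by sign, against 25.0% of all genes past the filter.

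In some such pairs the male differences were large in both genes while the female differences were not. CG1979 lies downstream of Sodh-1, a sorbitol dehydrogenase gene that differed by -4.88 in males and by -1.19 in females, where CG1979 was higher by 1.19. CG15282 lies downstream of Adh, the alcohol dehydrogenase gene, which differed by -3.05 and 0.45, against -2.03 and 1.19 for CG15282. CG10005 lies downstream of CG18547, at -4.91 and -0.29, against -1.53 and 1.00 for CG10005. Whether reads that run on from an upstream gene enter a member's count was not tested.

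Exons of 8 members overlap another annotated gene on the same strand and those of 11 overlap one on the opposite strand. Whether counting used strand is not known here, so the values of these members are uncertain. Among same-strand partners, Dhc64C (with CG18808) differed by 0.01 and -0.09, promL (with CG45067) by 0.01 and -0.20, and SPE (with CG18754) by -1.12 and -0.71. Among opposite-strand partners, Klp67A (with CG34456) differed by 0.03 and 0.41, Cyp28d1 (with CG7742) by -2.66 and -1.02, and PhKgamma (with CG2444) by -0.52 and -0.32. None of these 6 partners met both thresholds. Of other opposite-strand partners, ClC-c (with CG13074) differed by -0.01 and 0.27, and CG7382 (with CG14020) by 0.04 and -0.14. CG10761 (with CG15337) and bam (with CG11854) failed the level filter in males, females or both. CG10761 averaged 4.97 and 3.24 on male HPLC and LPHC, and 2.35 and 39.0 on female HPLC and LPHC. Those means were 4.05, 2.34, 3.09 and 8.53 for bam. The members CG32195 and CG7341, a run of neighbours above, overlap each other on the same strand, so reads of either may enter the other's count.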

How the data were processed

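Brain RNA was measured in 20 libraries, with 5 in each of 4 groups. HISAT2 was the aligner, per the submitters' processing notes. Its version, the program that counted reads, the build, the gene models and the strand setting are not given in the sources used. The deposited values are a normalised signal for every gene, in 1 table for each sex that the authors scaled on its own. Per the labels of the tables, DESeq2 made this scale and long non-coding RNAs are left out. Some genes with non-coding RNA names, such as asRNA:CR44321 and asRNA:CR45171, are listed all the same and count among the genes not named CG. All values came out as whole reads within a tolerance of 0.01, and these recovered reads give the depth of 13901684 to 35077559 per library. Every per-sample column was used.

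The diet difference is the mean of log2(value + 1) on LPHC minus HPLC, and with this pseudocount of 1 it understates the change of genes with low values. Genes that reached a value of 10 in 5 or more libraries were tested within each table with limma 3.58.1 (R 4.3.3) with an intensity trend, 2-sided, with Benjamini-Hochberg adjustment at 0.05 over 10115 genes in males and 9932 in females. The male minus female difference was fitted over both tables, so that 1 factor common to a table drops out, but rescaling single libraries does not. Alternatives were other pseudocounts, filters and scalings, each library left out, the replicate number as a block, and edgeR 4.0.16 and DESeq2 1.42.0 on the recovered reads. The fits were tested on simulated data. Python 3.11.15 with pandas 2.3.3 did the rest.

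The members and the gene lists were chosen with earlier results of these data known, and no list count is independent support. All members are named. Values in every library are given for the 8 with the largest smaller-of-both-sexes difference and for 1 more member of each family of 2 or more members. Other genes named are direct neighbours of members, overlapping genes, the 10 most like the member mean, and the genes with the smallest p of each list. Families were to be found by protein similarity. They were taken from synonyms in the RefSeq gene table instead, after the data were seen, and 8 genes with a protease synonym whose own symbol names another protein were left out. Neighbours and strands are from that table and the Ensembl annotation of the same assembly. No coordinates are given because the authors' build is not known, and no sequences are shown. Where counts of different genes are called high or low, this is not read as a difference in level, since values are not divided by gene length.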

Additional observations from a re-analysis of the deposited data

Results flagged for a closer look

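Within groups of 5 libraries, 1 library stood apart from the other 4 by Dixon's test at its 95% critical value of 0.71 in 20 of 280 groups of members, and chance flags about 1 in 20 groups. On male HPLC the highest library was the one apart for CG15282 at a normalised read count of 91.0, CG10445 at 81.7, CG18754 at 40.5, CG15337 at 50.1, CG43062 at 99.0 and CG4998 at 52.7. On male LPHC it was the highest library for CG15337 at 22.6, CG10357 at 16.7 and CG7509 at 55.8. On female HPLC the highest library was apart for CG10357 at 11.2, CG12725 at 8.79, CG8028 at 31.2 and CG13074 at 32.9, and the lowest for CG34454 at 251. On female LPHC the highest was apart for CG14419 at 1479, CG10445 at 94.7 and CG10357 at 70.9, and the lowest for CG1979 at 719, CG9701 at 1207 and CG17261 at 105.

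For list genes that are no members, the male minus female diet difference passed limma's adjusted p of 0.05 for the following named ones, among others. In the list of digestive proteases it was -0.86 for Ser7, -2.96 for Jon74E and -2.01 for Jon44E. In serine synthesis and the shortage response it was -3.15 for CG11899, -2.34 for aay, -3.10 for AsnS and -1.22 for CG6287. Among transporters it was -1.37 for NAAT1, -1.05 for slif, 0.44 for CG1607 and 0.85 for SerT. Among glutathione transferases it was -4.69 for GstE7, -3.65 for GstE6, -3.10 for GstD9 and -1.75 for GstS1. Genes of the other lists passed as well, some with larger differences. It was -8.18 for tobi among maltases, amylases and mannosidases and -8.10 for hll among lipid synthesis and lipases. In amino acid catabolism it was -3.61 for Shmt, among odorant-binding proteins -4.49 for Obp44a, and in insulin and TOR signalling 2.02 for Ilp3. For members, chosen on the male and female differences that make it up, no such test is given.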

How the results depend on the processing

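The number of members depended on the filter and the scaling. It was 120 with no filter, 41 with a minimum value of 50, 51 with a pseudocount of 8, 64 at the same total (53 of them shared with the 70) and 59 at the same upper quartile (57 shared). Leaving out 1 library gave 57 to 73. The number was 57 without male HPLC replicate 4, whose yolk protein share of 0.118% stood above 0.00666% to 0.00973% in the other male libraries. Leaving out a different male HPLC library gave 59 to 62. The level filter still asked for 5 libraries in each case. The median member difference in males was -1.29 with a pseudocount of 8, -1.85 with a minimum of 50, -1.43 at the same total, -1.51 at the same upper quartile and -1.70 to -1.54 with 1 library left out. In females it was 1.21 with a pseudocount of 8, 1.54 at the same total and 1.29 to 1.42 with 1 library left out. In 2122 comparisons of single members none changed sign, 63 moved by more than 1 SD between replicates, and no single library moved a member by over 1.5 times. The thresholds of the rule made a change of sign unlikely from the start, so its absence is no support for the members.

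Scaling to the same total shifted the median gene by 0.25 in males and 0.16 in females (log2), and the split of calls became 5611 higher and 1860 lower in males and 3195 and 729 in females, against 2794 and 2990, and 1662 and 1471, as deposited. At the same upper quartile it was 4739 and 2163, and 1747 and 1289. For the sex difference the split was 2217 higher and 2889 lower as deposited, 2794 and 2494 at the same total and 3280 and 2239 at the same upper quartile. With 1 library left out, called genes ranged from 5265 to 5828 in males, 2590 to 3355 in females and 4801 to 5292 for the sex difference. In males 5909 genes were called by edgeR and 5849 by DESeq2, and in females 3113 and 3305. Same-numbered libraries did not deviate together, with correlations of -0.23 to 0.05, and no library was most like its own number. With the replicate number as a block, 5354 male, 2609 female and 4644 sex-difference genes were called. Members with counts under 20 are limited by depth.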
